A study of Mus musculus with 14 samples.

Results

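The genes described are H2-K1, the heavy chain of a classical MHC class I molecule, B2m, the light chain of class I, Tap2, a subunit of the peptide transporter TAP, H2-Eb1, a beta chain of MHC class II, and H2-DMa, a chain of the peptide exchange factor of class II. They were chosen as the probes of a cDNA array that carry one of these 5 symbols alone in the platform annotation. Each gene had 1 such probe, so 5 of the 15247 features of the table were taken, or 5 of its 6422 genes with a probe of their own symbol, and all 5 had a value on every array. Spleen RNA of AcB55 mice (6 arrays) and of AcB61 mice (8 arrays) was hybridised in channel 1 against spleen RNA of A/J mice in channel 2. Both lines are inbred recombinant congenic strains, in which an A/J background holds stretches of the C57BL/6 genome, and the title of the series names malaria resistance. Age, sex, infection and treatment of the mice are not given in the sources used here, nor is which of the parents each strain carries at the MHC region. A/J RNA served as the partner on all 14 arrays and has no array of its own.

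MHC class I molecules sit on nearly all nucleated cells and present peptides made in the cytosol to CD8 T cells. TAP carries those peptides into the endoplasmic reticulum, where they are loaded on a heavy chain that is held together with beta-2 microglobulin. MHC class II molecules are made mainly by B cells, dendritic cells and macrophages and present peptides of ingested material to CD4 T cells, after H2-DM has removed the invariant chain fragment from the groove. In the spleen B cells are a main source of class II.

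Each array gave 14197 to 14588 values, with medians between -0.021 and 0.0087, and 13045 features could be tested, 6286 of them single named genes. Each value is the log2 of strain signal over A/J signal, so that 0 means equal signal, and means are given ± SD with n = 6 (AcB55) or n = 8 (AcB61). Base 2 was taken because the base is not given, and the percentages of A/J below rest on it and on the direction. Strain over A/J is the likely direction, because channel 1 is labelled with the strain throughout, but the dye of each array is not given. Were the ratios the other way round, every sign below would turn, and the percentages would be those of the A/J signal relative to the strain. The number of arrays limits the precision. Replicate numbers follow the order of the accessions within a strain and pair nothing. The labels do not say which arrays shared a mouse, so the p-values cover only array-to-array spread, possibly technical, and no variation among A/J animals.

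The AcB61 arrays stood apart from each other over the whole table. Clustering over all features but the 5 genes was cut into 2 sets in each strain, so a split was fixed in advance. It placed replicates 3, 5 and 7 in 1 set and replicates 1, 2, 4, 6 and 8 in another. Pairs of arrays within the set of 3 correlated at 0.70 to 0.80 and pairs within the set of 5 at 0.37 to 0.83, against a median of 0.13 (-0.089 to 0.61) between the sets. In AcB55 the same clustering set replicates 1 and 2 apart, with a correlation of 0.68 between them and a median of 0.45 (0.40 to 0.67) with the other 4. Pairs within those 4 correlated at 0.54 to 0.75, so the AcB55 ranges overlapped. For each of the 5 genes, calls that change without one of these sets are given both ways below. These sets come from the data and are not groups of the study.

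H2-Eb1 and B2m were lower than in A/J on every array of both strains. H2-Eb1 lay at 40.4% of the A/J signal in AcB55 and 44.2% in AcB61, and B2m at 55.8% and 63.7%. H2-K1 was lower in AcB61 but did not pass the test in AcB55, and H2-DMa was higher in AcB55 but did not pass in AcB61. Tap2 was slightly lower in AcB61. In the limma fit over all features, with Benjamini-Hochberg adjustment and a threshold of 0.05, 3 of the 5 genes passed in AcB55, against 20.7% of all features, and 4 of 5 in AcB61, against 23.8%. Both strains were set against the same A/J reference strain, so their ratios share it.

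**Figure D1:**
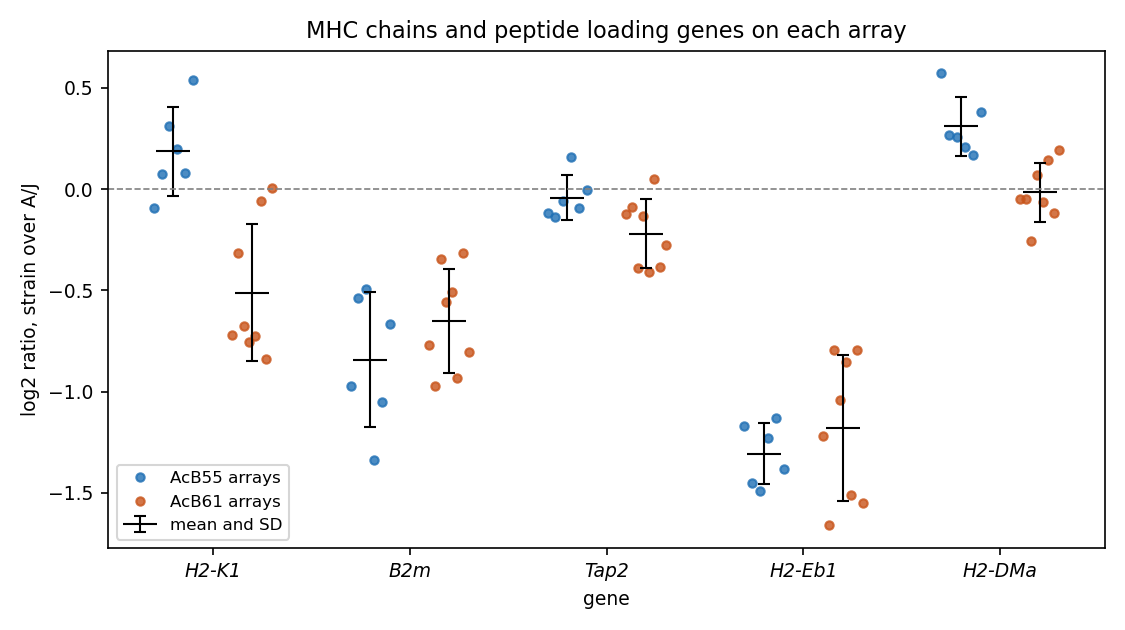
Log2 ratio of the strain to A/J (vertical axis) for the 5 genes on each of the 6 AcB55 arrays (blue) and 8 AcB61 arrays (orange), with the mean and SD of each strain in black and 0 dashed. All points of H2-Eb1 and B2m lie below 0, the AcB55 points of H2-DMa lie above 0, and most AcB61 points of H2-K1 lie below those of AcB55.

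The sequences before the start sites of H2-Eb1 and B2m, which were both lower in both strains, are shown beside that of H2-K1, which was lower in AcB61. They come from RefSeq with build GRCm38.p6, the C57BL/6J reference, and the RefSeq table matched 4 of the 5 genes (H2-Eb1, B2m, H2-K1 and H2-DMa). Capitals mark matches to the motifs named below. The H2-Eb1 stretch is chr17:34305617-34305866, plus strand, the B2m stretch is chr2:122147437-122147686, plus strand, and the H2-K1 stretch is the last 130 bases before the first listed start, chr17:34000348-34000477, minus strand.
H2-Eb1: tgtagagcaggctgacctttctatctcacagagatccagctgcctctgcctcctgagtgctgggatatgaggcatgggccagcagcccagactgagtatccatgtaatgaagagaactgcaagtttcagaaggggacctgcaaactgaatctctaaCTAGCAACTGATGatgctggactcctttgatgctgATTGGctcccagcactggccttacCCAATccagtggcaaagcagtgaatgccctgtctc
B2m: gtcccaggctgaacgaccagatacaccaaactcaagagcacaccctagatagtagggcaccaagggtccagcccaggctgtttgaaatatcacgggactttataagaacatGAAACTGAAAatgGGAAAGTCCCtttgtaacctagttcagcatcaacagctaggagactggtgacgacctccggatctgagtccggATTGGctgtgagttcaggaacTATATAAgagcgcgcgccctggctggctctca
H2-K1: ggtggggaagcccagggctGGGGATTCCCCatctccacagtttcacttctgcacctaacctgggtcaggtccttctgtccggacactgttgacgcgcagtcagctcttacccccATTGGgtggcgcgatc

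Both strands of 250 bases before each listed start were searched. The X box core of class II genes was searched only as 1 pattern of 13 bases. This pattern was found in the H2-Eb1 stretch from 94 bases before the start, and in 2 of all 32851 windows of this length. Other forms of the X box were not searched, so the stretches of H2-DMa, B2m and H2-K1 may still hold one. The Y box, CCAAT, which the factor NF-Y binds, was found in H2-Eb1 at 59 and 35 bases before the start, in B2m at 53 and in H2-K1 at 16, and in 33.8% of all windows. It was also found before the other listed start of H2-K1, at 30 and 6 bases, and before 1 of the 2 listed starts of H2-DMa, at 198, where no other searched motif was found. The interferon-stimulated response element was searched only as 1 pattern of 10 bases. This pattern was found in B2m at 139 bases before the start and in 2.98% of windows. Other forms of the element were not searched, so an unmarked stretch, such as that of H2-K1, may still hold one. The NF-kappa-B consensus was found in B2m at 126 and in H2-K1 at 111 bases before the start (125 from its other listed start), and in 7.25% of windows. The TATA box, TATATAA, was found in B2m at 32 bases before the start and in 3.04% of windows. The H2-K1 matches of the NF-kappa-B consensus, on both strands and 1 base apart, overlap each other, and no other marked matches overlap. A match describes letters and not a bound site, and the arrays did not measure binding.

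The beta chain gene H2-Eb1 had one of the lowest ratios of the whole table. Of 6 class II chain genes in the lists, H2-Eb1 alone was tested. In AcB55 its values ran from -1.49 over a median of -1.30 to -1.13, and in AcB61 from -1.66 over -1.13 to -0.79. All 14 arrays were therefore well below 0, and the AcB55 values lay within the range of AcB61. The mean was -1.31 ± 0.15 in AcB55 (adjusted p = 2.4e-07) and -1.18 ± 0.36 in AcB61 (adjusted p = 3.71e-07) in the limma fit. Ordered from the lowest ratio, H2-Eb1 was at place 6 of the 13045 features in AcB55 and at place 2 in AcB61. The strains did not differ beyond the spread of the arrays, with a difference, AcB61 minus AcB55, of 0.13 (95% confidence interval -0.16 to 0.42, adjusted p = 0.595). That comparison turned on the AcB61 sets. Without the 3 arrays of replicates 3, 5 and 7 the difference was -0.091 (adjusted p = 0.611), and without the other 5 it was 0.49 and passed the test (adjusted p = 0.00309).

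B2m, the light chain that every classical class I molecule needs, ran from -1.34 over a median of -0.82 to -0.49 in AcB55 and from -0.97 over -0.66 to -0.31 in AcB61. No array of either strain reached 0. The ranges overlapped in part: AcB55 replicates 4 and 5 (-1.34 and -1.05) lay below every AcB61 value, and AcB61 replicates 3 and 7 (-0.34 and -0.31) above every AcB55 value. The share of all features with every array below 0 was 13.2% in AcB55 and 7.69% in AcB61. The mean was -0.84 ± 0.33 in AcB55 (adjusted p = 1.8e-05) and -0.65 ± 0.26 in AcB61 (adjusted p = 6.14e-05), both by limma. B2m was at place 42 of 13045 from the lowest in AcB55 and at place 43 in AcB61. The difference between the strains was 0.19 (95% confidence interval -0.10 to 0.48, adjusted p = 0.397). The AcB61 value was -0.39 without the 5 arrays of replicates 1, 2, 4, 6 and 8 (adjusted p = 0.0376). On each array the ratio of H2-Eb1 was lower than that of B2m in 5 of 6 cases in AcB55 and in 8 of 8 in AcB61.

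H2-K1 had different ratios in the strains. In AcB55 its values ran from -0.091 over a median of 0.14 to 0.54, with 5 of 6 arrays above 0. In AcB61 they ran from -0.84 over -0.70 to 0.0052, with 7 of 8 arrays below 0. The ranges overlapped only through AcB61 replicates 6 and 8 (-0.057 and 0.0052) and AcB55 replicate 1 (-0.091). The mean of 0.19 ± 0.22 in AcB55 did not pass the test (adjusted p = 0.251), and the mean of -0.51 ± 0.34 in AcB61 did (adjusted p = 0.000612), at 70.2% of the A/J signal. The difference of -0.70 (95% confidence interval -0.99 to -0.40) passed as well (adjusted p = 0.00478), at place 76 of 13045 from the lowest. The exact label permutation over the 14 arrays gave p = 0.00233 for this difference, two-sided, and 0.0175 adjusted over the 15 exact tests of the 5 genes.

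H2-DMa, which helps to exchange the peptide of class II, was higher than A/J on all 6 AcB55 arrays, from 0.17 over a median of 0.26 to 0.57. Values above 0 on every array held for 10.6% of all features in AcB55 and 6.52% in AcB61. Its AcB61 values lay on both sides of 0, from -0.25 over -0.048 to 0.19, with 5 arrays below and 3 above. Only AcB61 replicate 8 (0.19) reached the lowest AcB55 value (0.17 on replicate 5). The mean was 0.31 ± 0.15 in AcB55 (adjusted p = 0.00136) and -0.016 ± 0.15 in AcB61 (adjusted p = 0.883). The difference of -0.33 (95% confidence interval -0.50 to -0.15) passed the limma test (adjusted p = 0.0168), and the exact permutation gave p = 0.00133 (0.0175 adjusted over the 15 exact tests). Between the strains 2 of the 5 genes passed, H2-K1 and H2-DMa, both lower in AcB61, against 12.3% of all features in either direction, 5.29% higher and 6.98% lower.

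Tap2, whose product forms the peptide transporter together with Tap1, was lower in AcB61 and did not pass the test in AcB55. Its AcB55 values ran from -0.14 over a median of -0.075 to 0.16, a mean of -0.042 ± 0.11 (adjusted p = 0.728). Its AcB61 values ran from -0.41 over -0.21 to 0.049, a mean of -0.22 ± 0.17 (adjusted p = 0.00636). The ranges overlapped, and the difference of -0.18 (95% confidence interval -0.35 to -0.0043) did not pass after adjustment (adjusted p = 0.169). The AcB61 decrease rested on replicates 3, 5 and 7 (-0.39, -0.41 and -0.39): without them the mean was -0.11 and did not pass (adjusted p = 0.172), and without the other 5 arrays it was -0.40. The difference between the strains passed only without those other 5 arrays (-0.35, adjusted p = 0.0103).

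The exact sign-flip test over arrays, two-sided, was run beside the limma fit. In AcB55 6 arrays allow no p below 0.0312, which H2-Eb1, B2m and H2-DMa reached, and which was 0.0521 after adjustment over the 15 exact tests. In AcB61 H2-Eb1 and B2m reached the smallest p that 8 arrays allow, 0.00781 (0.0293 adjusted), and H2-K1 and Tap2 gave 0.0156 (0.0391 adjusted).

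The other measured genes of antigen presentation moved in both directions. Of 83 symbols in the lists of class I, class II, peptide loading, immunoproteasome and regulators, 20 were tested, 15 of them besides the 5 genes. Of those 15, 2 rose, 7 fell and 6 did not pass in AcB55 (median -0.20, against -0.0019 over all features), where 9.77% of all features rose and 10.9% fell. In AcB61 2 rose, 4 fell and 9 did not pass (median 0.0064, against -0.00067), where 10.5% of all features rose and 13.3% fell. Between the strains 1 of the 15 was higher and 1 lower in AcB61, and 13 did not pass (median 0.081, against 0.012). Of all features 5.29% were higher and 6.98% lower in AcB61, so this count is near the share over all features.

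**Figure D2:**
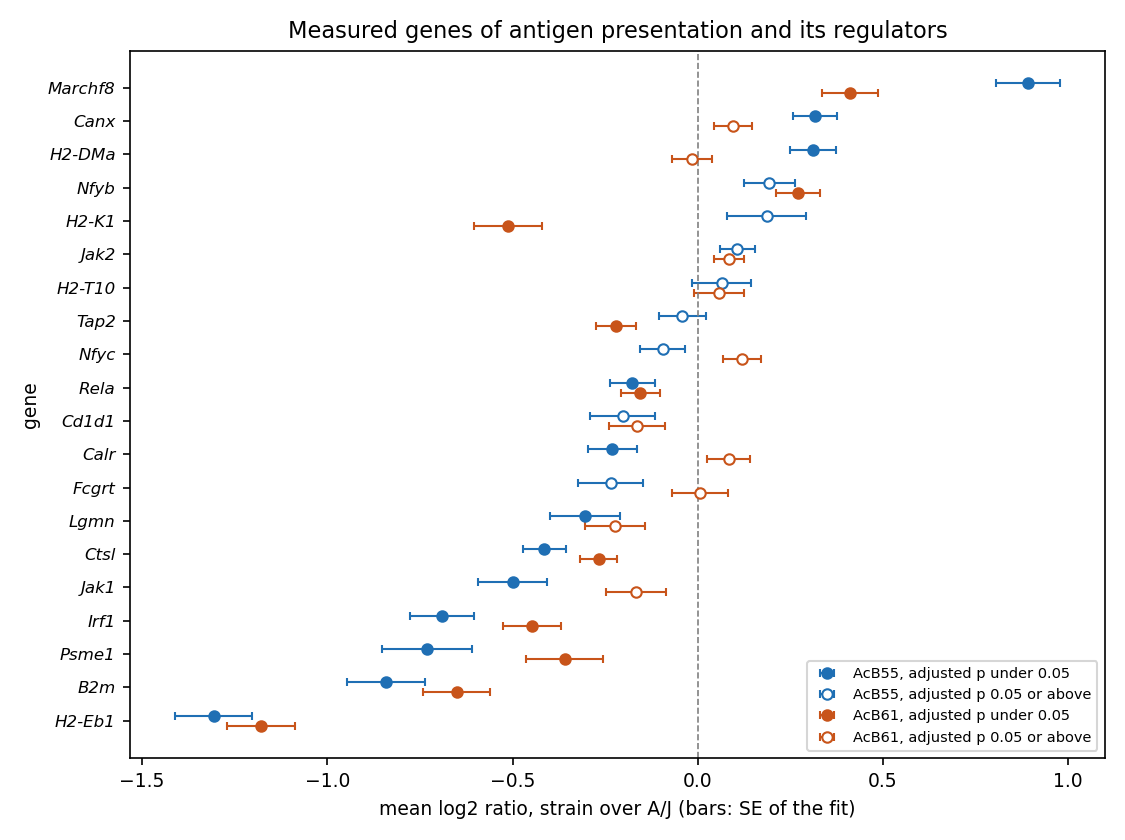
Mean log2 ratio to A/J (horizontal axis, bars give the SE of the fit) for the 20 tested genes of antigen presentation and its regulators in AcB55 (blue) and AcB61 (orange), filled where the adjusted p is under 0.05. H2-Eb1, B2m, Psme1 and Irf1 lie at the low end in both strains, and Marchf8 lies at the high end.

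Of the 4 tested class I heavy chain and class I-like genes, none passed the test in AcB55, where 20.7% of all features did. In AcB61 H2-K1 was the 1 of 4 that passed, near the 23.8% of all features. The others were Cd1d1 (-0.20 ± 0.24 and -0.16 ± 0.23 in AcB55 and AcB61), which presents lipids, H2-T10 (0.064 ± 0.093 and 0.058 ± 0.26) and the Fc receptor Fcgrt (-0.24 ± 0.14 and 0.0064 ± 0.28). The AcB61 values of these 3 turned on the array sets. Without AcB61 replicates 1, 2, 4, 6 and 8 all 3 passed there, Cd1d1 at -0.38 (adjusted p = 0.015), H2-T10 at 0.30 (0.00883) and Fcgrt at -0.31 (0.00976), and without replicates 3, 5 and 7 Fcgrt passed at 0.19 (0.0352). In the AcB55 comparison Fcgrt (-0.24) passed when either AcB61 set was left out of the fit (adjusted p = 0.00653 and 0.00558), and also without AcB61 replicate 3 (0.04) or 8 (0.0481). Of the loading chaperones, Canx, calnexin, rose in AcB55 (0.32 ± 0.078), but its 3 probes gave 0.099, -0.066 and 0.91, and with their median the call was lost (0.11, adjusted p = 0.26). In AcB61 it gave 0.094 ± 0.17 (adjusted p = 0.215), and 0.23, past the threshold (adjusted p = 0.04), without replicates 1, 2, 4, 6 and 8. Its difference between the strains passed without replicates 3, 5 and 7 (-0.30, adjusted p = 0.00663). Calr, calreticulin, fell in AcB55 (-0.23 ± 0.23, adjusted p = 0.0185), with a difference between the strains of 0.31 (adjusted p = 0.0283). The Calr decrease was lost without AcB55 replicate 4 or 6 (adjusted p = 0.0723 and 0.0978) or the arrays marked b (0.151), and the difference without AcB55 replicate 3, 4, 5 or 6 or AcB61 replicate 4 (0.051 to 0.0787), without AcB61 replicates 3, 5 and 7 together (0.0725) and without the 2 AcB55 arrays marked b in their titles (0.126).

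Psme1, a subunit of the interferon-inducible PA28 activator of the proteasome, fell in AcB55 (-0.73 ± 0.23, adjusted p = 0.000254). In AcB61 it also passed (-0.36 ± 0.40, adjusted p = 0.0177), from -1.06 on replicate 6 to 0.046 on replicate 7. This AcB61 call was lost without replicate 6 or 8 (adjusted p = 0.051 and 0.0559), and without the 5 arrays of replicates 1, 2, 4, 6 and 8 the value was -0.0018 (adjusted p = 0.992) and the difference between the strains passed (0.73, adjusted p = 0.00125). Without replicates 3, 5 and 7 the AcB61 value was -0.57. Of the class II processing proteases, Ctsl, cathepsin L, fell in both strains (-0.41 ± 0.071 and -0.27 ± 0.16). Lgmn, legumain, fell in AcB55 (-0.30 ± 0.22, adjusted p = 0.0272), a call lost without replicate 1, 4, 5 or 6 (adjusted p = 0.0718 to 0.097), without replicates 1 and 2 together (0.0937) or without the arrays marked b (0.0529). Lgmn gave -0.22 ± 0.28 in AcB61 (adjusted p = 0.0555). It passed there without replicate 2 (-0.27, adjusted p = 0.0276) or 6 (-0.27, 0.0244), or AcB55 replicate 3 (-0.22, 0.0491). Without AcB61 replicates 1, 2, 4, 6 and 8 it was -0.53 (adjusted p = 0.00109), and its mean on those 5 arrays was -0.039.

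Of the 7 tested regulators, Irf1, a transcription factor that interferon-gamma induces and that acts on class I genes, fell in AcB55 (-0.69 ± 0.21, adjusted p = 2.3e-05) and in AcB61 (-0.45 ± 0.25, n = 7, adjusted p = 0.000636). Marchf8, a ubiquitin ligase that removes class II and other proteins from the cell surface, rose in AcB55 (0.89 ± 0.11, adjusted p = 1.59e-06) and in AcB61 (0.41 ± 0.29, adjusted p = 0.000726). Its values lay between 0.80 and 1.07 in AcB55 and between -0.21 and 0.70 in AcB61, so the ranges did not overlap, as held for 2.67% of all features. Its difference of -0.48 passed the test (adjusted p = 0.0129), but not without the arrays marked b (adjusted p = 0.057), and its AcB61 call was lost without replicates 1, 2, 4, 6 and 8 (0.32, adjusted p = 0.0668). Jak1, a kinase of interferon receptors, fell in AcB55 (-0.50 ± 0.22, adjusted p = 0.000767) and gave -0.17 ± 0.28 in AcB61 (adjusted p = 0.157). Without replicates 3, 5 and 7 it passed in AcB61 (-0.28, adjusted p = 0.0396), its mean on those 3 arrays was 0.028, and its difference between the strains passed without the other 5 (0.53, adjusted p = 0.00593). Nfyb, a subunit of NF-Y, rose in AcB61 (0.27 ± 0.19, adjusted p = 0.00288) and gave 0.19 ± 0.13 in AcB55 (adjusted p = 0.055), which passed when either AcB61 set was left out of the fit (0.0192 and 0.046). Rela of NF-kappa-B was slightly lower in both strains (-0.18 ± 0.18 and -0.15 ± 0.10, adjusted p = 0.0462 and 0.0391). Its AcB55 call was lost without AcB55 replicate 2, 5 or 6 (adjusted p = 0.1 to 0.186) or any AcB61 replicate but 3 or 8 (0.0515 to 0.0592), and its AcB61 call without any of AcB61 replicates 2 to 7 (0.0627 to 0.0935). Both calls were lost without a set of their own strain (AcB55 -0.18, adjusted p = 0.0917, without replicates 1 and 2, and AcB61 -0.11, 0.245, and -0.22, 0.0685).

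The AcB61 sets separated H2-Eb1 and B2m without overlap. H2-Eb1 lay between -0.85 and -0.79 on replicates 3, 5 and 7 and between -1.66 and -1.04 on the other 5 arrays. B2m lay between -0.51 and -0.31 on the first and between -0.97 and -0.56 on the others. Tap2 was the other way round, between -0.41 and -0.39 on replicates 3, 5 and 7 and between -0.28 and 0.049 on the others. H2-DMa was lower as well on those 3 arrays (-0.25 to -0.064, against -0.048 to 0.19). H2-K1 overlapped, between -0.84 and -0.68 on the 3 and between -0.76 and 0.0052 on the 5, and its mean passed in AcB61 without either set (-0.37, adjusted p = 0.0169, without the 3, and -0.75, adjusted p = 9.52e-05, without the 5). Over all features, 34.1% did not overlap between these sets, which were drawn from the same features, so the split describes the arrays and is no test. The dye of each array is not given, and the part of dye, mouse or RNA preparation in the split was not tested.

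**Figure D3:**
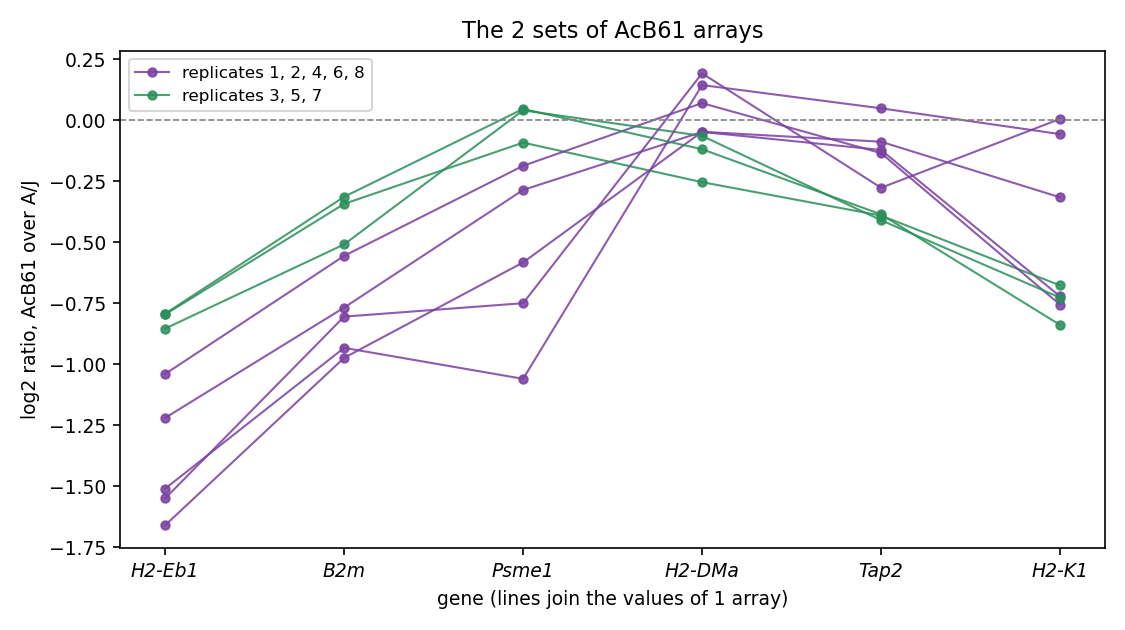
Log2 ratio of AcB61 to A/J (vertical axis) for the 5 genes and Psme1, with 1 line for each of the 8 AcB61 arrays, purple for replicates 1, 2, 4, 6 and 8 and green for replicates 3, 5 and 7. The green lines lie above all purple ones for H2-Eb1, B2m and Psme1 and below them for H2-DMa and Tap2.

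No correlation across arrays between the 5 genes is given, since the arrays of each strain fall into sets of fewer than 6 arrays, within which it cannot be tested.

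The genes most like each member were taken as those with the highest Pearson r over all 14 arrays among 5796 named genes with a value on all arrays. These arrays share the strain, the array sets and the A/J reference, so r is also given within the sets, after each set's mean was removed. The genes were picked by r on these same arrays, so high values follow in part from the choice. The r within sets comes from the same values, so it is no separate check, and no r was tested. For H2-Eb1 the most alike were Arfgap1 (r = 0.95, 0.85 within sets), Safb (0.94, 0.84), Arhgap45 (0.93, 0.89), Cdc37 (0.93, 0.83) and Elp5 (0.93, 0.89), and the most opposed were Atp13a3 (-0.96, -0.95) and Otud4 (-0.96, -0.88). Of these, Arhgap45 alone was itself lower than A/J in both strains in the fit (-0.91 and -0.64). For B2m the most alike were Arf4 (0.88, 0.89), Eps15 (0.88, 0.79), Phf7 (0.87, 0.80), Mpc1 (0.87, 0.81) and the carbonic anhydrase Car1 (0.87, 0.79), and the most opposed were Mdh2 (-0.93, -0.90) and Gga1 (-0.92, -0.88). A high r means that ratios varied together over the arrays, whatever their side of 0. Unlike B2m, Car1 was higher than A/J in both strains in the fit (0.61 and 0.77). Arf4 was lower in AcB55 alone (-0.42) and Eps15 higher in AcB61 alone (0.18). For H2-K1 the most alike were Poglut3 (0.94, 0.84), Fzd7 (0.92, 0.80), Ercc4 (0.90, 0.62), Cyp4v3 (0.89, 0.76) and Mysm1 (0.89, 0.49), and the most opposed were Hbb-y (-0.93, -0.73) and Gtf2i (-0.93, -0.77).

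For H2-DMa the 5 most alike were the interferon-inducible GTPase Igtp (0.87, 0.19 within sets), Parva (0.84, 0.70), the inflammasome adaptor Pycard (0.83, -0.014), Os9 (0.83, 0.54) and Dnajb4 (0.82, -0.024). Igtp and Pycard were higher than A/J in AcB55 (0.33 and 0.29, adjusted p = 0.0107 and 0.00246) and lower in AcB61 (-0.48 and -0.17, adjusted p = 0.000197 and 0.0269), and both had a lower r within the sets than over all arrays. The most opposed were Pnp (-0.90, -0.46) and Cks1b (-0.90, -0.45). For Tap2 they were Xrn2 (0.91, 0.71), Zbtb7b (0.89, 0.48), Zfp708 (0.87, 0.41), Ctdspl2 (0.86, 0.28) and Zcchc10 (0.85, 0.68), with Mrps36 (-0.91, -0.73) and Spata24 (-0.90, -0.77) the most opposed.

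H2-K1, H2-DMa, Tap2 and H2-Eb1 lie in the MHC region of chromosome 17, and B2m lies on chromosome 2. Of 122 genes that the GRCm38.p6 table lists from H2-K1 to H2-D1, 24 were tested, 20 of them besides these 4. Of the 20, 1 rose, 5 fell and 14 did not pass in AcB55 (median -0.014), and 2 rose, 3 fell and 15 did not pass in AcB61 (median -0.017). Over all features 9.77% rose and 10.9% fell in AcB55, and 10.5% and 13.3% in AcB61, and the AcB61 count of 5 of 20 is near the 23.8% called over all features. The 1 gene that rose in AcB55, Abhd16a (0.25, adjusted p = 0.0393), lost its call without replicate 1, 2, 4 or 5. Also lost in AcB55 were the call of Brd2 (-0.25) without replicate 2, 3 or 6 and that of Neu1 (-0.31) without replicate 6. The 2 that rose in AcB61 were Abhd16a (0.25) and Lsm2 (0.21). Abhd16a lost this call without replicate 3 or 7, and Lsm2 without replicate 1, 2, 6 or 8. H2-Eb1 had the lowest ratio of the region in both strains, followed in AcB55 by Clic1 (-0.64 ± 0.12, adjusted p = 5.32e-06), an intracellular chloride channel protein, and in AcB61 by H2-K1. The nearest tested genes on either side of H2-Eb1 were Tap2 and Pbx2, with listed genes that were not tested in between. Pbx2 gave -0.28 ± 0.18 in AcB55 (adjusted p = 0.0111) and -0.020 ± 0.19 in AcB61 (adjusted p = 0.874). Its AcB55 call was lost without replicates 1 and 2 (adjusted p = 0.105) and without the arrays marked b (adjusted p = 0.109), and its difference between the strains passed without AcB61 replicates 1, 2, 4, 6 and 8 (0.44, adjusted p = 0.00934). Clic1 also passed in AcB61 (-0.29 ± 0.21, adjusted p = 0.00206), but not without replicates 3, 5 and 7 (-0.16, adjusted p = 0.0658), and was -0.51 without the other 5. Mpig6b, an inhibitory receptor of platelets, gave 0.21 ± 0.15 (n = 4) in AcB55 (adjusted p = 0.0729, and 0.0447 without AcB61 replicates 1, 2, 4, 6 and 8) and fell in AcB61 (-0.28 ± 0.15, adjusted p = 0.00186), with a difference of -0.49 (adjusted p = 0.00537). The H2 genes of a haplotype are near-identical in part, so a class I spot such as that of H2-K1 may bind transcripts of other class I genes and its identity is uncertain. Whether sequence differences between the strains at these genes changed the hybridisation was not tested.

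**Figure D4:**
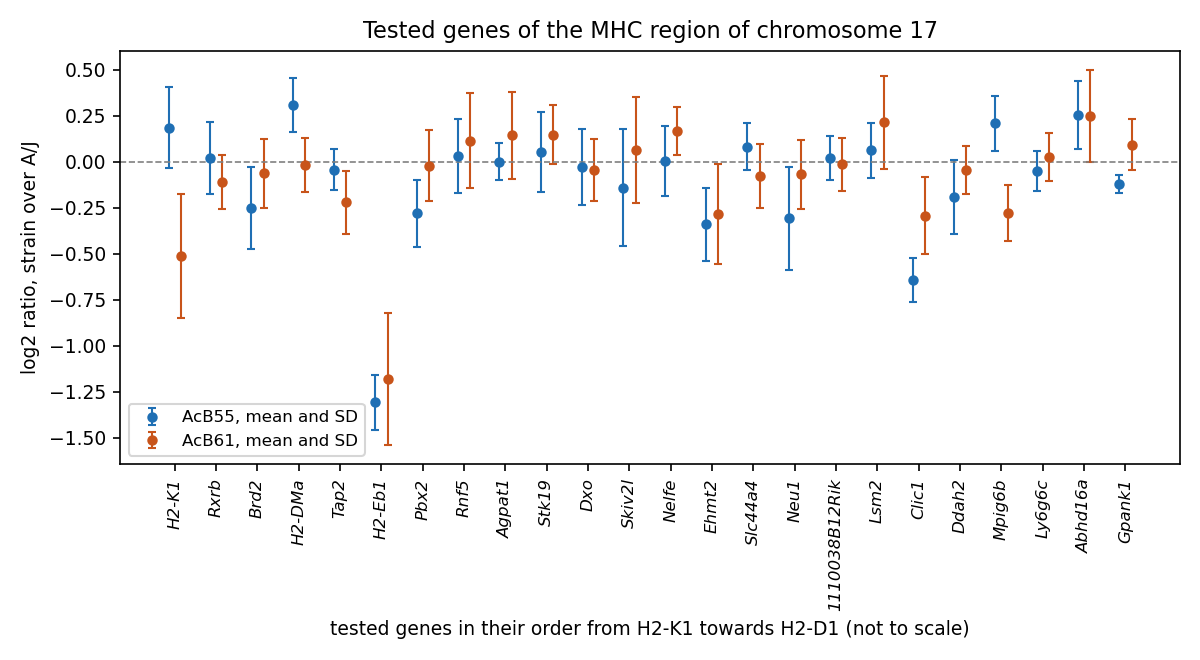
Mean log2 ratio to A/J with SD (vertical axis) for the 24 tested genes of the MHC region of chromosome 17, in their order from H2-K1 towards H2-D1 and not to scale, in AcB55 (blue) and AcB61 (orange). H2-Eb1 lies lowest in both strains. The nearest tested genes, with others that were not tested in between, are Tap2 (-0.042 in AcB55 and -0.22 in AcB61) and Pbx2 (-0.28 and -0.020).

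Markers of spleen cell types differed from A/J in both directions. In bulk RNA, fewer cells of a type and less RNA per cell cannot be told apart. Of 16 B cell markers Blnk alone, a linker of the B cell receptor, was tested, and it fell in AcB55 (-1.07 ± 0.30, from -1.47 to -0.57, adjusted p = 1.01e-06) and in AcB61 (-0.58 ± 0.20, n = 6, from -0.80 to -0.33, adjusted p = 0.000316). The Blnk ratio was lower in AcB55 than in AcB61 (difference, AcB61 minus AcB55, 0.49, adjusted p = 0.0244), while the H2-Eb1 difference of 0.13 did not pass, and the Blnk difference was lost without AcB55 replicate 5 or 6 or AcB61 replicate 1 (adjusted p = 0.0516 to 0.0609) and without AcB55 replicates 1 and 2 together (0.063). Of 7 tested macrophage and dendritic cell markers of 21, 5 fell in AcB55 and 3 in AcB61, and 0 rose in either. Of all features 10.9% fell in AcB55 and 13.3% in AcB61. Examples of the markers that fell were the complement gene C1qa in AcB55 (-0.63 ± 0.46) and the receptor Axl in both (-0.29 ± 0.10 and -0.37 ± 0.21, n = 7). The mean over the list ran from -0.42 to -0.17 over the AcB55 arrays and from -0.30 to -0.095 over those of AcB61. In AcB55 the call of C1qb was lost without replicate 3 or 6 (adjusted p = 0.0763 and 0.136). That of Lyz2 was lost without replicate 1, 4, 5 or 6 (0.0577 to 0.0915), and that of C1qc without the arrays marked b (0.0774). In AcB61 Lyz2 was -0.058 without replicates 1, 2, 4, 6 and 8 (adjusted p = 0.608). There C1qc passed without replicates 3, 5 and 7 (-0.45, adjusted p = 0.00258). Of 10 tested red cell precursor markers of 21, 8 rose in each strain, against 9.77% of all features in AcB55 and 10.5% in AcB61. Their list means were 0.43 to 0.70 in AcB55 and 0.54 to 0.73 in AcB61, led by the anion exchanger Slc4a1 (1.28 ± 0.31, n = 5, and 1.07 ± 0.23). Ermap fell in AcB55 (-0.24, adjusted p = 0.00572), and Hba-a1 passed in neither strain (-0.013 and 0.040). Without AcB55 replicates 1 and 2 the AcB55 calls of Alad (0.35, adjusted p = 0.084), Alas2 (0.25, 0.146) and Ermap (-0.18, 0.07) were lost. The AcB61 call of Urod was lost without replicates 1, 2, 4, 6 and 8 (0.35, adjusted p = 0.0591). Of 4 tested granulocyte markers of 14, Lcn2 rose in AcB55 (0.65 ± 0.82, adjusted p = 0.0353), a call lost without replicate 1 or 2 (adjusted p = 0.147 and 0.163). Replicates 1 and 2 had 1.47 and 1.89 and the other 4 -0.0086 to 0.29, and without both the value was 0.14 (adjusted p = 0.652). S100a9 and Lcn2 rose in AcB61 (1.10 ± 0.36 and 0.98 ± 0.44), where Hdc fell (-0.29 ± 0.20). Without replicates 1, 2, 4, 6 and 8 none of these 3 passed in AcB61 (0.80, 0.57 and -0.16, adjusted p = 0.067, 0.15 and 0.0722). Satb1, the 1 tested T cell marker of 19, gave -0.18 ± 0.14 in AcB55 (adjusted p = 0.0303), lost without replicate 1, 2, 5 or 6 (adjusted p = 0.0602 to 0.105) or 1 and 2 together (0.176), and -0.025 ± 0.12 in AcB61. Cpa1, the 1 tested pancreas marker of 15, ran from -3.58 to 2.37 over the AcB55 arrays and from -0.89 to 0.48 over those of AcB61. The part of these cell types in the ratios of the MHC genes was not tested, and ratios give no level by which the spleen label could be checked.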

How the data were processed

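RNA was labelled with Cy3 or Cy5 and hybridised to cDNA arrays with 2 channels. Per the labels' protocols, images were quantified with QuantArray 3.0 and imported into GeneSpring. The sources used here give no normalization, log base or dye per array. The authors deposited 1 table of log2 ratios (base 2 assumed), used as deposited. Probes with 1 gene symbol were averaged per gene and array, and features with at least 3 values in each strain were tested. R 4.3.3 with limma 3.58.1 fitted a mean per strain over all 14 arrays (lmFit, eBayes), tested against 0 and between the strains, two-sided, with Benjamini-Hochberg adjustment over 13045 features. The fit was tested on simulated data. The exact tests were run in R, and Python 3.11.15 served for motifs and figures. The genes and lists were chosen with earlier results of these data known. Named besides the 5 genes are the measured pathway and region genes, per gene the 5 most alike and 2 most opposed, and up to 3 called markers per list. Further markers are named where they went another way, did not pass or lost a call.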

Additional observations from a re-analysis of the deposited data

Results flagged for a closer look

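H2-K1 and H2-DMa differed between the strains (AcB61 minus AcB55 -0.70 and -0.33, adjusted p = 0.00478 and 0.0168 in limma). So did Calr (0.31, adjusted p = 0.0283) and Marchf8 (-0.48, adjusted p = 0.0129). Of 40 combinations of a pathway gene and a strain, 3 held an array that stood apart by Dixon's test, a number near what chance gives, about 1 in 20. They were Nfyc on AcB55 replicate 2 (0.24, against -0.26 to -0.090 on the others), Jak2 on AcB55 replicate 1 (0.29, against 0.037 to 0.13) and Marchf8 on AcB61 replicate 5 (-0.21, against 0.30 to 0.70).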

How the results depend on the processing

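Under other settings 405 values of the 5 genes kept direction and side of the threshold, 4 reversed, 2 newly passed and 4 no longer passed. Many of the 405 could not change direction, so their number does not measure robustness. Each gene had 1 probe and a value on every array, so settings on probes or missing values left its ratios as they were. Leaving out an array of 1 strain left the mean of the other as it was. Only the adjusted p could move in these cases. H2-DMa in AcB61 lay between -0.046 and 0.018 without 1 replicate, above 0 only without replicate 3, and turned to 0.062 without replicates 3, 5 and 7, and Tap2 in AcB55 to 0.0016 without replicates 1 and 2. The H2-Eb1 difference turned to -0.091 without AcB61 replicates 3, 5 and 7 and became 0.49, past the threshold, without the other 5, as did Tap2 (-0.35). Tap2 in AcB61 was -0.11 and no longer past it without replicates 3, 5 and 7. By the exact test in AcB55, B2m (-0.84), H2-Eb1 (-1.31) and H2-DMa (0.31) did not pass. They reached the smallest p that 6 arrays allow, 0.0312, which was 0.0521 after adjustment over the 15 exact tests. The sets were added after the data were seen. Of the features, 1601 differed between the strains, 854 to 1694 without 1 replicate (854 without AcB55 replicate 6, 924 without replicate 5), 2772 with array weights, 705 without the arrays marked b, 2585 without AcB61 replicates 1, 2, 4, 6 and 8, and 2781 without 3, 5 and 7. Of the listed genes 7 differed, 3 to 10 without 1 replicate (4, 4 and 3 without AcB55 replicates 4, 5 and 6), 11 with scaled arrays, 14 with weights, 3 without the b arrays, and 12 and 11 without the sets. The cause was not tested. Intensities were not used here, so signal over background is unknown. No paired analysis was possible because the labels carry no number that pairs arrays across strains; the replicate numbers used here are only accession order.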
